A study of Homo sapiens with 47 samples.

Results

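Single circulating tumor cells (CTCs) of the LM2 line were compared with LM2 cells taken from a culture dish, across all genes and by program. LM2 (MDA-MB-231-LM2) is a lung-tropic derivative of the human triple-negative breast cancer (TNBC) line MDA-MB-231. The study aimed at surface proteins by which live CTCs of TNBC can be caught. Every CTC with a value column and every cultured cell entered the comparison, which made 37 CTCs and 6 cultured cells, 43 of the 47 libraries of the series. The labels name 41 CTC libraries, and the 4 without a value column were not analysed here. For the CTCs, GFP-labelled LM2 cells were placed in the mammary fat pad of NSG mice aged 6 to 8 weeks, a strain without mature lymphocytes, and blood was taken at the end point. Cells were enriched from blood by size on a Parsortix device, stained for CD45 as a marker of cells to leave out, and picked singly by their GFP signal with an instrument. The cultured cells were LM2 cells grown in medium with serum and picked as single cells from 1 culture, and the sources used here do not say whether they carried GFP. The CTCs came from 5 mice, with 2 from mouse 5541, 4 each from mice 5542 and 5549, 10 from mouse 5545 and 17 from mouse 5546. CTCs were averaged within each mouse first, so that the mouse is the replicate (n = 5) and the culture is 1 unreplicated sample. The groups differ in host, in growth site and in isolation from blood at once, and these cannot be told apart.

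Tumor cells that enter the blood leave the matrix and the neighboring cells to which they were attached. In attached, spread cells the co-activators YAP and TAZ enter the nucleus and drive genes such as ANKRD1 together with TEAD factors, and serum and medium components in a dish feed growth factor signaling, nucleotide synthesis and cell division. MDA-MB-231 cells are mesenchymal in shape and carry activating mutations of the mitogen-activated protein kinase (MAPK) pathway.

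Each library was made by SMARTseq2, which copies polyadenylated RNA with an oligo-dT primer and carries no unique molecular identifiers. Reads on genes ranged from 469614 to 2041333 in CTCs (median 1257540) and from 776949 to 1186197 in cultured cells (median 911310). A CTC held between 2313 and 12299 detected genes (median 7569) and a cultured cell between 7369 and 13679 (median 10190). Mitochondrial genes took 4.28% to 23.9% of the reads of a CTC and 4.05% to 5.74% of those of a cultured cell. Of 16 genes that describe the line, 15 were detected in CTCs (KRT5 was not analysed here), and together they took 1.33% to 2.01% of reads over the mouse means against 0.779% to 1.43% in cultured cells. Intervals on counts would cover counting error only, since copies of 1 molecule cannot be told apart.

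The first finding concerned the scale. On the normalized counts of the authors, the median gene lay below its culture mean in all 5 mice, with log2 ratios of -1.69, -1.38, -1.24, -1.34 and -1.82 in mice 5541, 5542, 5545, 5546 and 5549 (mean -1.49 ± 0.25, SD, n = 5). These ratios are log2 of the mouse mean over the culture mean, with a pseudocount of 1 on each, over the 9164 genes whose higher group mean reached 8. In RPM, that is recovered reads scaled to 1 equal total in every cell, the same median was -0.73 ± 0.17. Most of the measured genes entered with a culture mean of at least 8, and the shortfall was smaller with no minimum mean. In the edgeR test on reads summed per mouse (TMM factors), the median log2 fold change over 13813 genes was 0.31. The place of the median gene thus depends on the genes taken and on the scaling. Summed over genes, the normalized counts of a cultured cell exceeded those of a CTC 1.58-fold when medians were compared. The shortfall was smallest among the most abundant transcripts. It was -0.70 ± 0.25 for the 199 genes with a culture mean of at least 1000, and between -1.66 and -1.31 for the classes below. A gene with many copies was read in nearly every cell on both sides, while a gene with a culture mean of 8 to 30 was read in a median of 45.9% of CTCs and 83.3% of cultured cells. These classes were formed by the culture mean alone, which favors detection in the culture. The percentages therefore cannot measure a loss of detection in CTCs. List medians are therefore given relative to the median gene.

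**Figure D1:**
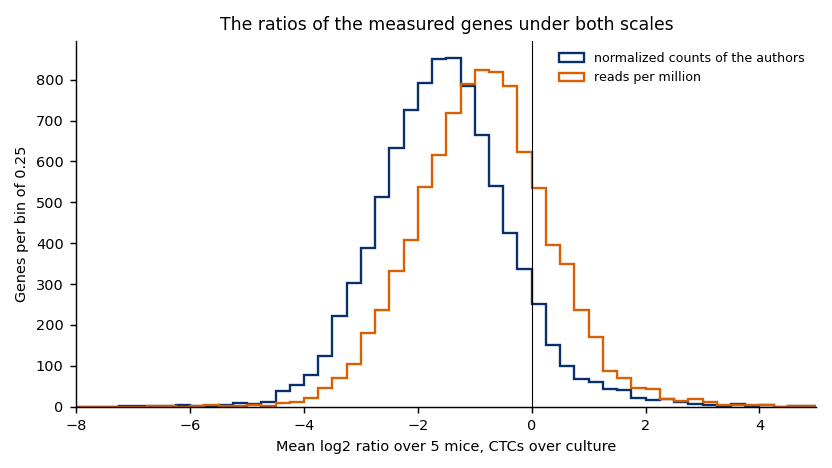
Number of measured genes per bin of 0.25 (vertical axis) by mean log2 ratio of CTCs to culture over 5 mice (horizontal axis). The 2 outlines show the normalized counts of the authors and RPM. As a mean of the mice, the median gene lay at -1.49 on normalized counts and, over 8777 genes, at -0.73 in RPM.

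A rule of size was used to name genes, because the culture has no replicate from which its own spread could be taken. It asked for a ratio of 4 or more, or its inverse, between the mouse mean and the culture mean in all 5 mice. By this rule 487 of 9164 genes (5.31%) were lower in CTCs and 6 (0.0655%) were higher. In RPM 137 genes were lower (1.56% of 8777) and 12 higher (0.137%). After the median gene of each mouse was set to 0, 27 were lower (0.295%) and 49 higher (0.535%), so the balance of directions turns with the scaling. All 27 were also lower in RPM, and all 6 higher genes were also higher in RPM. Their agreement between the centered and uncentered counts was fixed in advance, since the median gene lay below 0 in every mouse. Of the 487 lower genes, 460 were protein coding and 20 were long noncoding RNAs. Without regard to mice, every CTC lay below the lowest cultured cell for 42 genes (0.458%) and above the highest cultured cell for none (0%). These 2 counts cannot be compared, since 1 CTC without reads of a gene keeps it out of the second. The CTC with the fewest genes held 2313. Of these 42, 26 also met the size rule, and 7 kept the separation in RPM, namely ACTN1, BICC1, C19orf48P, IL11, STT3A, TSEN15 and TSR1.

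Reads summed per mouse were also tested against the summed culture, which assumes for the culture a spread like that between mice. The quasi-likelihood test of edgeR called 0 of 13813 genes in either direction at a false discovery rate of 0.05 (0%), with a smallest adjusted p of 0.157, and 241 genes had an unadjusted p below 0.05, 140 of them higher in CTCs and 101 lower. DESeq2 called 18 genes higher (0.13%) and 2 lower (0.0145%). The 2 lower genes were ALDH3A1 and ANKRD1, and the 18 higher genes included PAEP, HBB, HBD, AREG, ACTA2, KLF6, SERPINF1 and ALAS2. Of the 487 genes lower by size, 65 had an unadjusted p below 0.05 in edgeR. The lower genes are thus a description of these 6 cultured cells and 37 CTCs.

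**Figure D2:**
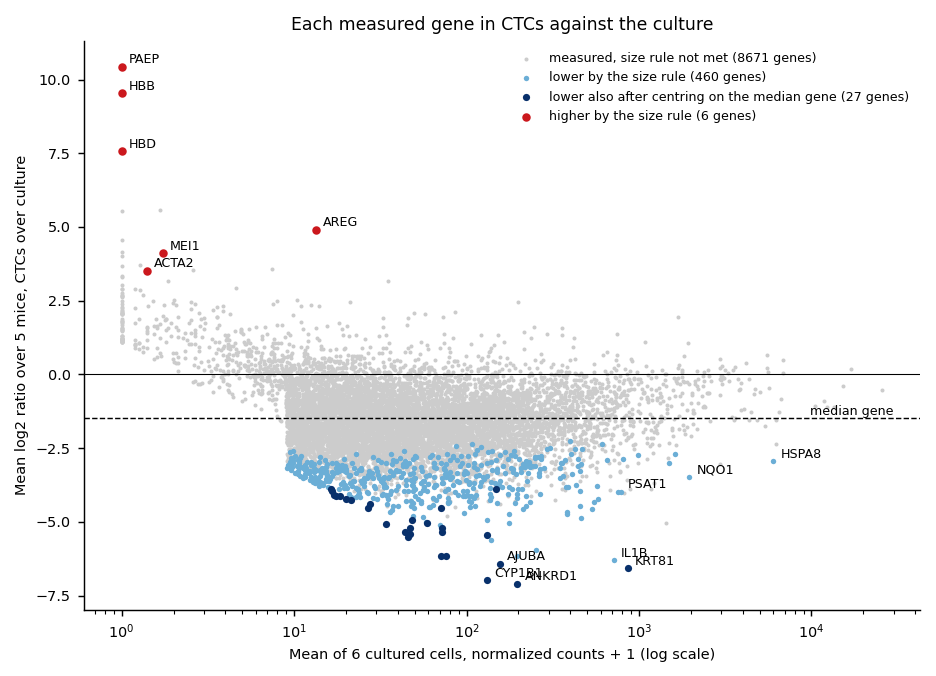
Log2 ratio of CTCs to culture (vertical axis, mean of 5 mice) against the mean normalized count in culture (horizontal axis, log scale) for the 9164 measured genes, with genes that met the size rule colored. The cloud is centered below 0, with 487 lower and 6 higher genes marked.

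ANKRD1 showed the largest ratio below 0 with a pseudocount of 1, a setting that limits the ratio of genes at or near 0 in CTCs, such as ALDH3A1, CYP1B1 and VIPR1. The gene lies on chromosome 10 (chr10:90912096-90921087, GRCh38) and encodes a nuclear ankyrin-repeat cofactor that serves as a readout of YAP. Its normalized count in cultured cells ranged from 1.72 to 814 with a median of 84.3. The mouse means were 0, 0, 0.662, 0.86 and 0.981, in the order 5541, 5542, 5545, 5546 and 5549 that is kept for all mouse means. The log2 ratio was -7.10 ± 0.49 (SD, n = 5), or 137-fold lower. It was detected in 10 of 37 CTCs and in 6 of 6 cultured cells, and 30 CTCs lay below the lowest cultured cell. The 250 bases before the start of ANKRD1 are shown because they hold the letters that TEAD factors recognize, GGAATG on either strand, in capitals, at 2 places (RefSeq, GRCh38.p14, minus strand, chr10:90921088-90921337).
ANKRD1: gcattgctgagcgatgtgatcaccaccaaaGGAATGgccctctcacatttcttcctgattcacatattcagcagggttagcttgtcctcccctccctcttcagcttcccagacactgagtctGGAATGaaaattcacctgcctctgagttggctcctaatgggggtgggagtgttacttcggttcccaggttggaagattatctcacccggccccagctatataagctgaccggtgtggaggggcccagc
Windows of the same length hold these letters in 11.9% of 27305 promoters, 9.44% of 7429 promoters of measured genes, and 35.3% of the 17 with a sequence on the list of YAP and TEAD genes. Of the 395 lower genes with a sequence 10.1% hold them, and AJUBA, also on the list, has 0 matches. A match is a description of letters and not a bound site.

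AJUBA, a LIM protein of adhesion sites that restrains the Hippo kinases, followed ANKRD1. Cultured cells held 6.9 to 258 normalized counts (median 139), and the mouse means were 0, 1.5, 1.48, 2.23 and 0. The log2 ratio was -6.42 ± 0.80, with 33 of 37 CTCs below the lowest cultured cell. NUAK2, a kinase induced by YAP, was lower as well (-3.79 ± 0.85), as was F3 (tissue factor, -4.23 ± 2.61). The program as a whole did not move with them. Of 23 measured YAP and TEAD genes 4 were lower (5.31% over all genes) and none higher, and the list median was 0.10 ± 0.50 relative to the median gene. The best known targets CCN1 and CCN2, matricellular proteins, had log2 ratios of -1.53 ± 1.18 and -2.31 ± 1.78, and neither met the rule. For CCN1, the means of 2060, 716, 3860, 2369 and 571 fell inside the range of the cultured cells (1583 to 12584) in 3 of 5 mice.

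The aryl hydrocarbon receptor (AHR) is a ligand-activated transcription factor that senses tryptophan metabolites and xenobiotics, and CYP1B1, which oxidizes such ligands, and ALDH3A1, an aldehyde dehydrogenase, are among its targets. CYP1B1 reached 0 to 438 normalized counts in cultured cells (median 50.9). Among CTCs 1 of 37 held reads of it, in mouse 5546 with a mean of 0.196, and the other 4 mice were at 0 (log2 ratio -6.98 ± 0.12). ALDH3A1 was detected in 5 of 6 cultured cells, at up to 322, and in none of the 37 CTCs, which makes it at least 406-fold lower when 3 reads over all CTCs are taken as the floor. In 2 cultured cells CYP1B1 was at 0 too, and the lowest cultured cell was at 0 for ALDH3A1 as well. For both genes all 37 CTCs and all 5 mouse means therefore lay inside the range of the cultured cells. NQO1, a quinone reductase under AHR and NRF2, was present in every cultured cell at 1391 to 2802 (median 1889) and had means of 149, 163, 186, 247 and 146 in the mice. It was 11.2-fold lower (-3.48 ± 0.31), with 36 of 37 CTCs below every cultured cell and 1 inside their range. Over the 7 measured AHR genes the median was -1.54 ± 0.54 relative to that of all genes and below it in every mouse, and 3 genes met the rule (CYP1B1, ALDH3A1 and NQO1). The list took 0.0298%, 0.0303%, 0.0395%, 0.0416% and 0.0295% of reads in the mice against 0.131% to 0.251% in the cultured cells, and 36 of 37 CTCs lay below that range.

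**Figure D3:**
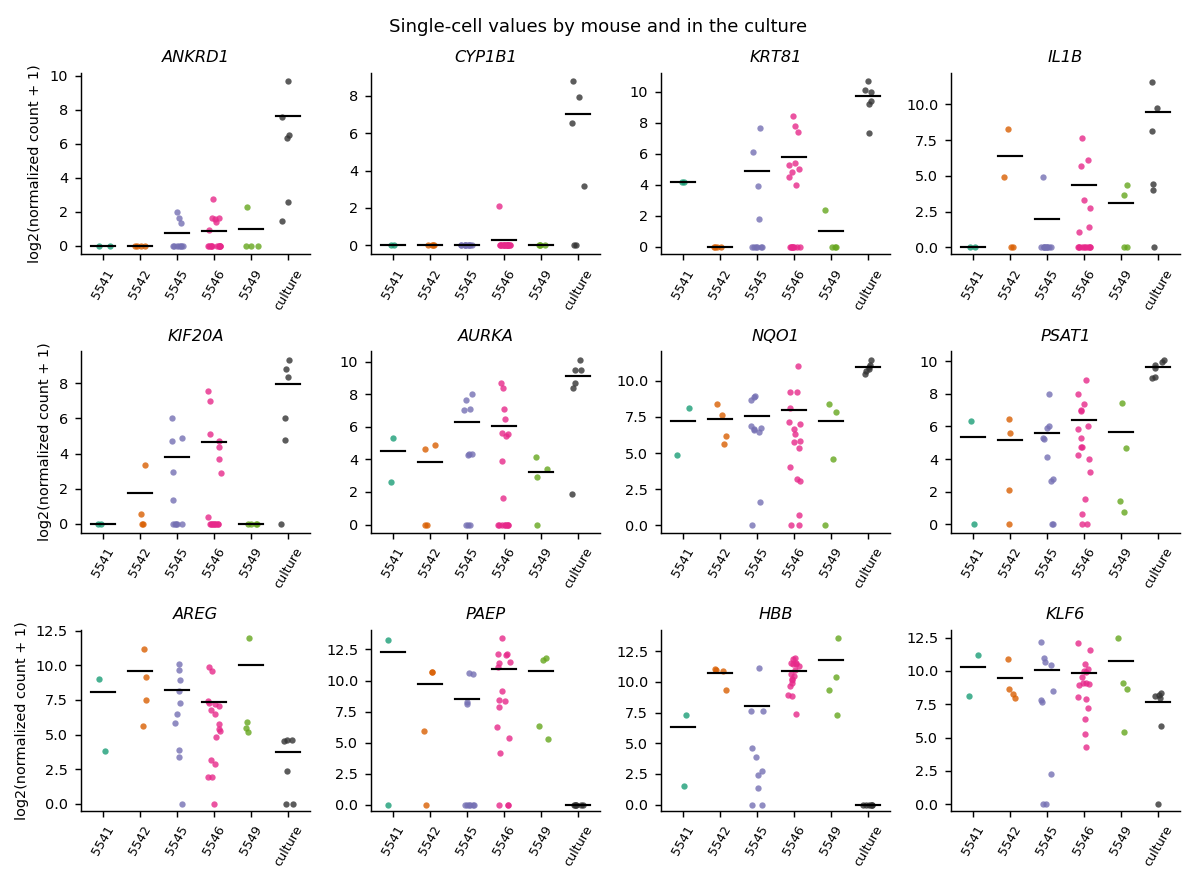
Normalized counts of 12 genes (vertical axis, log scale of value plus 1) in each cultured cell and each CTC, grouped by mouse along the horizontal axis, with bars at group means. ANKRD1, CYP1B1, KRT81, IL1B, KIF20A, AURKA, NQO1 and PSAT1 sit higher in the culture, and AREG, PAEP, HBB and KLF6 sit higher in most CTCs.

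KRT81, a hair keratin of the LM2 lung metastasis signature, was detected in all 6 cultured cells at 163 to 1623 (median 847) and in 16 of 37 CTCs. The mouse means were 16.9, 0, 28.9, 53.4 and 1.04 (log2 ratio -6.58 ± 2.52), and 33 CTCs lay below the lowest cultured cell. Its neighbor KRT86 is nearly identical in sequence and overlaps it, so unique reads may be split between them and the values are uncertain. BICC1, an RNA-binding protein that represses translation, was separated completely. Its lowest cultured cell stood at 37.6 and its highest CTC at 21.4, with mouse means of 2.42, 0.398, 2.19, 2.89 and 3.42 (-5.44 ± 0.65). The transcription factor TFAP2C, which is active in luminal and stem-like breast cells, had a log2 ratio of -5.36 ± 0.87 and was detected in 10 CTCs and 5 cultured cells. CA2 (carbonic anhydrase, -5.34 ± 0.26), GPRC5C (an orphan G protein-coupled receptor, -6.17 ± 0.16), the gel-forming mucin MUC5AC (-5.42 ± 0.28) and VIPR1 (receptor for vasoactive intestinal peptide) completed the genes with the largest ratios under all scalings. VIPR1 was at 0 in all 37 CTCs and was detected in 4 of 6 cultured cells, at least 260-fold lower. CA2, GPRC5C, MUC5AC and VIPR1 were also at 0 in 1 or 2 cultured cells, so that no single CTC lay outside the range of the culture. SHH, a Hedgehog ligand, and NOG, an antagonist of bone morphogenetic proteins, belonged to the same 27 genes, each with reads in 3 cultured cells and 2 CTCs.

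Genes of cell division were lower, with a wide spread between mice. The list medians were -1.64 ± 1.83 for mitosis and -1.55 ± 1.62 for S phase relative to the median gene, and below it in each mouse. Of 46 measured genes of mitosis and G2/M 9 were lower by size and none higher, and of 39 genes of DNA replication and S phase 8 were lower and none higher, against 5.31% of all genes. In RPM 5 and 2 of them were lower, against 1.56% of all genes, and after centering 0 and 0. The spread came from mouse 5541, whose 2 CTCs stood at -4.84 and -4.39. Without that mouse the values were -0.85 and -0.84. KIF20A, a kinesin of the cleavage furrow, ranged from 0 to 649 in cultured cells (median 195) and averaged 0, 2.41, 12.7, 24.2 and 0 in the mice (-5.94 ± 2.14). AURKA, a kinase of the spindle pole, ranged from 2.74 to 1114 in culture (median 566) and averaged 21.9, 13.1, 78.1, 65.6 and 8.24 (-4.33 ± 1.36). The other mitotic genes that met the rule were CCNA2, BUB1, CDCA8, KIF2C, DLGAP5, CENPA and NEK2, which make a cyclin and parts of the kinetochore and spindle. UBE2C, the ubiquitin-conjugating enzyme of mitotic exit, varied most visibly, with means of 17.9, 963, 1652, 434 and 955 against a culture median of 1625, and 4 CTCs exceeded the highest cultured cell. Mouse 5541 was lowest, alone or tied, for each of these genes except AURKA.

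The replication genes behaved alike. MCM2, a subunit of the replicative helicase, was at 32.6 to 152 in cultured cells and averaged 0, 0.265, 8.14, 6.65 and 7.9 in the mice (-4.36 ± 1.61), with 36 of 37 CTCs below the lowest cultured cell. GINS3 of the same helicase (-3.91 ± 1.08) and the clamp loader subunit RFC3 (-3.86 ± 1.68) had every CTC below every cultured cell. FEN1 (flap endonuclease, 16-fold lower), RFC4, RRM1 (ribonucleotide reductase), CCNE2 (cyclin E2) and DSCC1 also met the rule, while RRM2 and TK1 did not, at -4.01 ± 3.25 and -3.09 ± 3.73. As a share of reads, a measure free of size factors, S phase genes took 0.0222%, 0.268%, 0.232%, 0.205% and 0.387% in the mice and 0.238% to 0.885% in cultured cells, and 23 of 37 CTCs lay below that range and 14 inside it. Mitotic genes took 0.299%, 0.961%, 1.18%, 0.83% and 0.657% against 0.494% to 2.17%, with 16 CTCs below, 20 inside and 1 above. The cultured cell LM-3 was the lowest at 0.494%, and the next stood at 1.57%.

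Promoters of 3 mitotic genes are shown, since 1 pair of motifs marks genes that the DREAM and MuvB complexes switch with the cell cycle. The capitals mark the cell cycle homology region (CHR), TTTGAA on either strand, and the CCAAT box, CCAAT on either strand, in the 250 bases before the start (RefSeq, GRCh38.p14). CDCA8 lies at chr1:37692266-37692515 on the plus strand, DLGAP5 at chr14:55191586-55191835 on the minus strand and CENPA at chr2:26785806-26786055 on the plus strand.
CDCA8: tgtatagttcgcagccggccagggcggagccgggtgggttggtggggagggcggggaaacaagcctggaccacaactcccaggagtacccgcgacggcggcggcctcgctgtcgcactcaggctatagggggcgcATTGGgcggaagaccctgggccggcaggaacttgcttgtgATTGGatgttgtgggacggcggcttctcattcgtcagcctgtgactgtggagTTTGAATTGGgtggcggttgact
DLGAP5: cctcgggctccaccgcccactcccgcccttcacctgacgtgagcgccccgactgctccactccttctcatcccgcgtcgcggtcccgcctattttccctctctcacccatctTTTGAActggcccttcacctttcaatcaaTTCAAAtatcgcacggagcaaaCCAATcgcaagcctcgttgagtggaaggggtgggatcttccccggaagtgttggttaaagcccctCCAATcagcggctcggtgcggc
CENPA: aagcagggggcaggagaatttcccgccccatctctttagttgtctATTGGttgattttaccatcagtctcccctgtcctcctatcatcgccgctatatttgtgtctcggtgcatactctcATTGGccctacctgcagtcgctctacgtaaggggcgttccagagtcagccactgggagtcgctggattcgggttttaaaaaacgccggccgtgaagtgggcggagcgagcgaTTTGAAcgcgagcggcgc
The CHR letters occur in 13.6% of all promoters, in 8.41% of those of measured genes and in 56.8% of the 37 mitotic genes with a sequence. The CCAAT letters occur in 33%, 36.1% and 83.8% of these sets. CCNA2, KIF20A, BUB1, KIF2C and NEK2 hold no CHR match in their windows. Among all 395 lower genes with a sequence 12.4% held the CHR letters, between the shares in measured genes and in all promoters.

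Nucleotide synthesis was lower in every mouse. The list median was -1.19 ± 0.46 relative to the median gene. Of 18 measured genes 6 met the rule on normalized counts (5.31% over all genes), 0 did in RPM and 0 did after centering. GART and PAICS, enzymes of the purine pathway, had log2 ratios of -3.15 ± 0.72 and -3.05 ± 0.72. GART was at 110 to 306 in cultured cells and averaged 12.4, 28.9, 35.9, 38.1 and 14.5 in the mice, with 35 of 37 CTCs below the lowest cultured cell. GMPS (guanosine monophosphate synthesis, -3.33 ± 0.61), ADSS2, PRPS2 and CTPS2 were the others. IMPDH2, the rate-limiting enzyme of guanine nucleotide synthesis, had a ratio of -2.23 ± 0.83 and did not meet the rule. The list took 0.0614% to 0.213% of reads over the mice and 0.214% to 0.34% in cultured cells, and 30 CTCs lay below, 6 inside and 1 above.

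Nucleolar genes linked to MYC and ribosome assembly pointed the same way in 4 of 5 mice. Their median was -0.90 ± 0.73 relative to the median gene. Of 20 genes 2 met the rule (5.31% over all genes), BOP1 and DKC1, which process ribosomal RNA, and 0 did in RPM or after centering. BOP1 averaged 39.4, 44.3, 28, 19.4 and 17.6 against 127 to 452 in the culture, and DKC1 averaged 0.302, 79.3, 90, 61.1 and 38.3 against 240 to 782. In both, all 37 CTCs lay below all cultured cells. NCL (nucleolin) was 6.36-fold lower (-2.67 ± 0.87) with 35 CTCs below the range of the culture. Of reads, the list took 0.182% to 0.502% over the mice and 0.449% to 0.994% in cultured cells, and 30 CTCs were below and 7 inside.

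Genes for the proteins of the ribosome itself stood on the other side of the median gene. Cytosolic ribosomal proteins had a median of -0.25 ± 0.16, which is 1.24 ± 0.16 above the median gene, and 73 of the 79 genes were above it in all 5 mice. None met the rule in either direction. Their share of reads was 9.22%, 9.27%, 12.1%, 11.5% and 11.4% in the mice and 5.98% to 10.2% in cultured cells, with 1 CTC below, 15 inside and 21 above. RPS18 held 2822, 3309, 3894, 4134 and 2959 in the mice against 2672 to 3907 in the culture (0.04 ± 0.24). These genes are abundant, and the abundant class as a whole lay at -0.70. Of 461 genes detected in every 1 of the 43 cells, 77 were of this list and 15 were mitochondrial.

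Chaperones of the cytosol were lower. HSPA8, the constitutive Hsp70, averaged 775, 435, 1313, 1116 and 571 in the mice against 4087 to 8580 in the culture (7.75-fold lower, -2.95 ± 0.66), and no CTC reached the lowest cultured cell. HSPA4, a nucleotide exchange factor for Hsp70, and CCT3, a subunit of the chaperonin that folds actin and tubulin, met the rule too (7.81-fold and 7.98-fold lower). HSP90AA1 had a ratio of -1.28 ± 0.69. Across 24 measured genes 3 were lower on normalized counts (5.31% over all genes), 0 in RPM and 0 after centering. The list median was -0.57 ± 0.37 relative to the median gene and below it in each mouse, and it came to -0.01 when cells were summarized by medians. The list took 0.935%, 1.16%, 1.59%, 1% and 1.33% of reads in the mice and 1.97% to 3.56% in cultured cells, and 34 CTCs lay below and 3 inside. Chaperones of the endoplasmic reticulum did not follow, with a median of 0.02 ± 0.56 from the median gene and 0 of 20 genes meeting the rule.

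**Figure D4:**
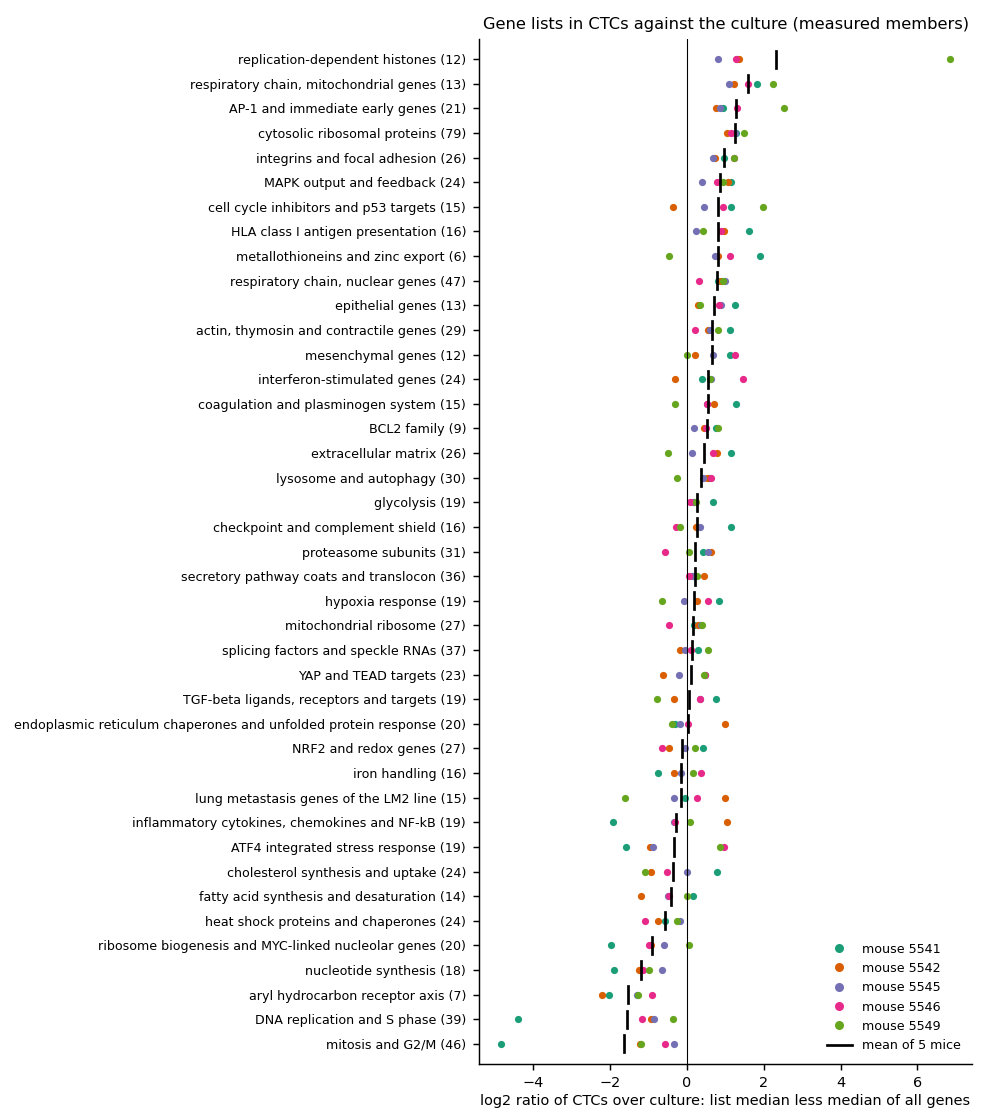
Median log2 ratio of each gene list less the median of all measured genes (horizontal axis) for the 41 lists, with a point for each of the 5 mice and a bar at their mean. Mitosis, S phase, AHR, nucleotide synthesis and chaperones lie below 0 in every mouse, and the mitochondrial respiratory chain, AP-1 genes and ribosomal proteins lie above 0 in every mouse.

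Among metabolic genes the clearest was PSAT1, the second enzyme of serine synthesis and a target of ATF4. It was at 505 to 1090 in cultured cells (median 806) and averaged 40.8, 34.7, 48, 81.8 and 49.2 in the mice. It was 15.8-fold lower (-3.98 ± 0.46), and all 37 CTCs lay below all cultured cells. Of 19 measured ATF4 genes 3 were lower (5.31% over all genes), 2 in RPM and 0 after centering (PSAT1, the amino acid transporter SLC7A5 at -3.90 ± 1.97 and the glutathione-degrading CHAC1 at -2.93 ± 0.23), and the list median was -0.33 ± 1.16 from the median gene, with 3 mice below and 2 above. In fatty acid synthesis ELOVL6 (an elongase, -3.76 ± 1.25) and ME1 (malic enzyme, a source of NADPH, -5.01 ± 1.19) were lower. These were 2 of 14 genes (5.31% over all genes), 2 in RPM and 0 after centering. The list median was -0.41 ± 0.52 relative to the median gene. ME1 was detected in all cultured cells and in 5 of 37 CTCs. This list took 0.0347% to 0.0594% of reads over the mice and 0.0769% to 0.121% in cultured cells, with 34 CTCs below. None of 24 cholesterol genes met the rule (-0.36 ± 0.76), and 23 CTCs took a smaller share of reads for them than any cultured cell. Among NRF2 and redox genes 3 of 27 were lower (5.31% over all genes), NQO1, ME1 and TKT (transketolase, -2.88 ± 0.55), 2 in RPM and 0 after centering, with a median of -0.12 ± 0.45.

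Glycolysis did not share this course. None of 19 genes met the rule, the median lay 0.26 ± 0.24 above the median gene, and the list took 2.81% to 3.98% of reads over the mice and 2.51% to 4.69% in cultured cells. GAPDH averaged 11604, 12670, 15152, 10663 and 8348 against 10222 to 18934 in the culture (-0.40 ± 0.32), and LDHA had a ratio of -1.08 ± 0.21, which is 0.41 above the median gene. Hypoxia genes spread around the median gene (0.18 ± 0.58), with 1 of 19 lower (5.31% over all genes). The respiratory chain stood above the median gene, at 0.79 ± 0.27 for 47 nuclear genes and 1.59 ± 0.46 for the 13 mitochondrial genes, in every mouse. Of the mitochondrial genes 9 had a culture mean of at least 1000, and that class as a whole lay at -0.70 without centering. Mitochondrial subunits took 4.2% to 5.76% of reads over the mice and 2.79% to 4.08% in cultured cells, and 24 CTCs lay above that range. Within the set, MT-CO1 (-1.12 ± 0.86) and MT-CO3 (0.04 ± 0.32), which encode subunits of the same oxidase, differed in ratio.

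Secreted cytokines combined large ratios with a wide spread between mice. IL1B, a pro-inflammatory cytokine, ranged from 0 to 3105 in cultured cells (median 150) and averaged 0, 83.1, 2.98, 19.7 and 7.67 in the mice (-6.30 ± 2.41), with reads in 12 of 37 CTCs and 5 of 6 cultured cells. CSF2 (GM-CSF) was detected in all cultured cells at 24.6 to 464 and in 11 CTCs, 35 CTCs lying below every cultured cell. Its means were 0, 0, 38.8, 2.59 and 0.14 (-6.15 ± 2.28). IL11, a cytokine of the IL-6 family, was the steadiest, with means between 0 and 0.498 against 12.3 to 61.7 in culture and no overlap of single cells (-4.52 ± 0.25). CXCL8, the neutrophil chemokine, had no common direction, with means of 55.4, 2684, 52.7, 5.67 and 438 against a culture median of 104. CSF3 (G-CSF) averaged 1682 in mouse 5542 and 0.281 to 61.2 in the others, against 0 to 3627 in the culture. Of 19 measured cytokine and NF-kB genes 4 were lower (5.31% over all genes), 3 in RPM and 1 after centering, and the list median was -0.29 ± 1.07 from the median gene.

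**Figure D5:**
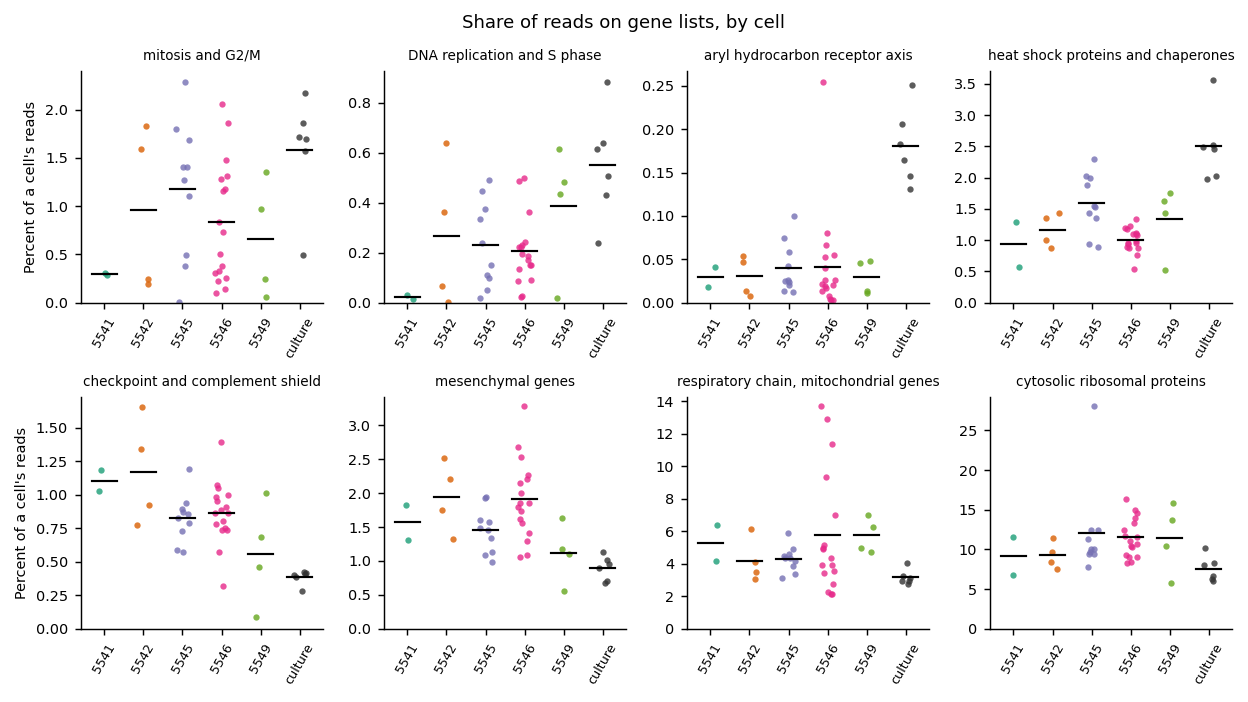
Percent of reads (vertical axis) taken by 8 gene lists in each cultured cell and each CTC, with CTCs grouped by mouse. CTCs lie mostly below the cultured cells for AHR genes and chaperones and mostly above them for checkpoint and complement genes and mesenchymal genes.

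AREG, a ligand of the EGF receptor and an output of MAPK signaling, was the only growth factor among the 6 higher genes. It was at 0 to 23.9 in cultured cells (median 13.3) and averaged 268, 775, 298, 159 and 1036 in the mice, 30-fold higher (4.90 ± 1.12). It was detected in 35 of 37 CTCs, and 28 lay above the highest cultured cell. Of the 24 measured genes of MAPK output 1 was higher (0.0655% over all genes) and none lower (5.31%). Their median was 0.86 ± 0.30 above the median gene in every mouse. EREG, a related ligand, had a ratio of 1.36 ± 0.56 and met the rule after centering on the median gene. HMGA1 (-0.00 ± 0.59) and PHLDA2 (-0.52 ± 0.82), abundant members, differed from the culture by less than the SD between mice.

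Immediate early genes of the AP-1 group had a median of 1.28 ± 0.73 above the median gene, in every mouse. KLF6, a zinc finger factor induced by serum and stress, averaged 1278, 708, 1052, 920 and 1668 in the mice against 0 to 322 in the culture (5.43-fold higher, 2.44 ± 0.47), and 22 CTCs exceeded the highest cultured cell. It met the rule in RPM and after centering but not on the normalized counts. FOSL1, a FOS-related partner of JUN, had a ratio of -1.61 ± 1.31, close to that of the median gene (-0.12 relative to it), and lay below every cultured cell in 33 CTCs. GADD45A, a p53 and stress gene that restrains the cell cycle, averaged 180, 144, 86.3, 222 and 848 against a culture median of 46.8 (2.09 ± 1.22). The list of cell cycle inhibitors and p53 targets lay 0.82 ± 0.86 above the median gene, in 4 of 5 mice. Of 15 genes 0 met the rule on normalized counts. After centering 2 were higher, GADD45A and FAS (0.535% over all genes). MALAT1, a nuclear long noncoding RNA of speckles, averaged 4249, 8666, 4635, 7816 and 8611 against 274 to 2532 in the culture (3.83-fold higher, 1.94 ± 0.51), and 29 CTCs exceeded that range. Splicing factors as a list stayed near the median gene (0.14 ± 0.29).

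Replication-dependent histones had a list value of 2.32 ± 2.54. Of the 40 listed genes that were in the data 12 reached the minimum mean of 8 in CTCs or culture, and their median culture mean was 6.8, so that genes which passed by their level in CTCs alone raise this value, and it is not read as a difference. The 12 genes had a median of 6.85 above the median gene in mouse 5549 and of 0.81 to 1.35 in the others. H1-2, a linker histone, averaged 36.3, 43.8, 11.9 and 110 in 4 mice and 1935 in mouse 5549, against 0 to 105 in the culture. H4C3 averaged 23.3, 1664, 1499, 686 and 2461 against 134 to 4438 and showed no such step. Most histone transcripts of this class end without a poly(A) tail, and their copies are nearly identical, so the values are uncertain for an oligo-dT library with unique reads.

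The list of checkpoint and complement genes holds regulators that shield cells from T cells and complement. It also holds MICA, MICB, ULBP1, ULBP2 and ULBP3, activating ligands that do not shield. The list took 1.1%, 1.17%, 0.825%, 0.863% and 0.562% of reads in the mice against 0.28% to 0.421% in cultured cells. Of 37 CTCs 35 lay above that range, 1 inside and 1 below. Its most abundant members differed in ratio. LGALS1, a galectin that binds glycans on T cells, averaged 5034, 6114, 3960, 3512 and 2648 against 1761 to 2360 (2.11-fold higher, 1.08 ± 0.47), with 31 CTCs above the highest cultured cell. CD59, an inhibitor of the membrane attack complex, had a ratio of 0.23 ± 0.74. By medians the same list lay only 0.25 ± 0.57 above the median gene, with 2 mice below it. HLA class I genes were 0.82 ± 0.54 above the median gene in every mouse and took 0.491% to 1.12% of reads over the mice against 0.41% to 0.733%. HLA-B averaged 960, 1274, 702, 1105 and 345 against 53.3 to 869 in the culture (0.94 ± 0.75).

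Mesenchymal genes had a median 0.65 ± 0.54 above the median gene, with 4 mice above and 1 below it. They took 1.12% to 1.95% of reads over the mice and 0.668% to 1.13% in cultured cells, with 31 CTCs above, 5 inside and 1 below. VIM, the intermediate filament of mesenchymal cells, averaged 7908, 12616, 8772, 9417 and 6147 against 4205 to 7232 (0.65 ± 0.38), and S100A4 averaged 209, 1476, 683, 1014 and 252 against 62.7 to 553 (1.24 ± 1.23). Epithelial genes had a median 0.71 ± 0.41 above the median gene, and none of 13 met the rule. Among keratins KRT8 was at -0.31 ± 1.14, KRT18 at -1.22 ± 0.80 and KRT7 at -3.90 ± 2.65. Genes of coagulation and plasminogen took 1.25% to 2.17% of reads over the mice and 0.864% to 1.19% in cultured cells, with 30 CTCs above, and their median was 0.54 ± 0.57 above the median gene (4 of 5 mice). ANXA2, a receptor for plasminogen and tPA, averaged 9987, 11851, 12505, 8962 and 6209 against 5296 to 7792 (0.49 ± 0.40). Matrix genes took 0.239% to 0.964% over the mice against 0.146% to 0.295%, and 26 CTCs lay above, with a median of 0.44 ± 0.64 above the median gene (4 of 5 mice). TIMP1, an inhibitor of matrix proteases, averaged 3676, 1093, 1134, 863 and 246 against 252 to 555 (1.24 ± 1.39). FN1 averaged 660, 550, 368, 1142 and 12.4 against 0 to 382, so that mouse 5549 differed from the rest.

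Adhesion and cytoskeleton divided by gene. Integrins and focal adhesion genes had a median 0.96 ± 0.26 above the median gene in every mouse, and yet ACTN1, which crosslinks actin at adhesions, averaged 371, 235, 201, 130 and 160 against 1141 to 2155. It was 7.13-fold lower (-2.83 ± 0.57), all 37 CTCs lay below all cultured cells on normalized counts and in RPM, and it did not reach a ratio of 4 in every mouse. TMSB4X, which sequesters actin monomers, averaged 5265, 5600, 6824, 6771 and 3385 against 3254 to 5411 (0.38 ± 0.41). TAGLN, a contractile gene, was lower (-4.18 ± 0.93, detected in 4 CTCs), and ACTA2, smooth muscle actin, was higher, with means of 18.3, 35.7, 6.74, 13.7 and 12.3 against 0 to 1.25 (3.51 ± 0.82). ACTA2 is also a marker of pericytes and fibroblasts. Of the 12 markers on that list 5 were detected in any CTC, LUM and RGS5 were at 0 in all CTCs, and COL3A1, PDGFRA, THY1, FAP and C7 were not analysed here. The list took 0.00174% to 0.0102% of reads over the mice against 0.000108% to 0.00295% in the culture. ACTA2 is 1 of its 2 members that reached the minimum mean, and its reads are part of this share. The part of such cells in the ACTA2 result was not tested.

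The remaining lists held few called genes. Proteasome subunits (0.22 ± 0.49, 0 of 31), the mitochondrial ribosome (0.15 ± 0.36, 0 of 27), the secretory pathway (0.21 ± 0.15, 0 of 36), TGF-beta genes (0.06 ± 0.61, 0 of 19) and BCL2 family genes (0.53 ± 0.25, 0 of 9) had none. Iron handling (-0.15 ± 0.43) and the lung metastasis genes of LM2 (-0.15 ± 0.96) had 1 lower gene each, FLVCR1 and KRT81 (5.31% over all genes). Lysosome and autophagy genes had a median of 0.37 ± 0.37 from the median gene. Interferon-stimulated genes were 0.56 ± 0.63 above the median gene with 22 of 37 CTCs above the culture in share of reads, and none of 24 met the rule. Metallothioneins stood at 0.81 ± 0.86. Over the 41 lists 5 were below the median gene in all mice and 13 above it in all mice. Of the 487 lower genes 51 belonged to any list (5.31% lower over all genes). The 41 lists cover 1043 of the 25739 genes in the data, so this count depends on list size and is not read as a result about the lower genes.

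Loss of detection was taken by a separate rule, whose counts cannot be set against those of the size rule. Of 4732 genes detected in all 6 cultured cells, 2 (0.0423%) were found in at most 10% of CTCs, PLA2G4A, which releases arachidonic acid, and VDR, the vitamin D receptor. PLA2G4A was at 1.61 to 39.8 in culture and was detected in 3 CTCs, and VDR was at 6.27 to 33.8 and was detected in 2. A looser rule, chosen after the values were seen, asked for at least 4 of 6 cultured cells and at most 3 CTCs. It took 137 of 9394 genes (1.46%), 103 of them protein coding, 42 of them lower by size and 14 of them in no CTC. CYP1B1, GPRC5C, ALDH3A1, MUC5AC and VIPR1 led by culture mean. The others included ABCG2 (a drug efflux pump), EGLN3 (an oxygen sensor), TGFA (a ligand of the EGF receptor) and HPSE (heparanase). Such counts depend on depth and on genes per cell. Median reads on genes were higher in CTCs (1257540 against 911310), and median genes per cell were lower (7569 against 10190).

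In the opposite direction 34 of 9709 genes (0.35%) that no cultured cell held were detected in at least 50% of CTCs and in every mouse. Of these, 25 were pseudogenes of any kind, 2 were long noncoding RNAs and 7 were protein coding (PAEP, HBB, HBD, HBA2, SERPINF1, ALAS2 and BIN2). PAEP, glycodelin, is a secreted lipocalin of the endometrium known to act on immune cells. It averaged 5024, 821, 360, 1986 and 1758 in the mice, was detected in 26 of 37 CTCs and was at least 2000-fold higher, with 3 reads over the culture as the floor. SERPINF1, the anti-angiogenic factor PEDF, averaged 56.8, 139, 83.9, 80.9 and 2.86 and was at least 73.1-fold higher. MEI1, a meiosis gene, completed the 6 higher genes with means of 21.1, 373, 25.8, 14.1 and 6.19 against 0 to 3.23 (4.11 ± 2.16), and was detected in 18 CTCs.

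The globins came with reads on other genes of blood cells. HBB, which encodes beta globin, averaged 78.3, 1639, 262, 1871 and 3558 and was detected in 35 of 37 CTCs, at least 1490-fold higher than in culture. HBD averaged 16, 419, 74.5, 487 and 928 and followed the same order of mice, and ALAS2, the first enzyme of heme synthesis in erythroid cells, averaged 2.81, 15.1, 3.58, 48.8 and 73.2. The globin genes are near copies of each other, and the reads were aligned to the human genome alone although the CTCs came from mouse blood, so these values are uncertain, and the share of mouse reads in them was not tested. The erythroid list took 0.06%, 0.286%, 0.0601%, 0.352% and 0.504% of reads in the mice against 0.0111% to 0.0756% in the culture. HBB, HBD and ALAS2 are on this list, so the share is not separate from their values. Of its 16 markers 11 were detected in CTCs, and HBA1, HBG1, GYPB and EPB42 were among those not analysed here. S100A9, a neutrophil protein, was read in 30 of 37 CTCs, at means of 0, 24, 11, 145 and 162, and 12 of 16 neutrophil markers were detected in CTCs, at 0.00137% to 0.0283% of reads over the mice against 0% to 0.00337% in the culture (S100A8, S100A12, ELANE and CEACAM8 were not analysed here). The reads of S100A9 are part of this share. Leukocyte genes took 0.0207%, 0.0978%, 0.0446%, 0.0703% and 0.0228% against 0.00648% to 0.06% in the culture, with 16 of 20 markers detected in CTCs. Of the CTCs 11 lay above that range, 24 inside and 2 below. CD74, on this list, was present in the culture too (0 to 692) and averaged 13.9, 651, 238, 232 and 36.1 in the mice. TYROBP averaged 0, 8.09, 1.86, 13.3 and 26.2 and was at 0 in culture. The pseudogenes IFITM3P2 (means 1.45, 5.67, 2.82, 30.5 and 51.3) and FTLP16 (0.281, 5.7, 4.06, 26.1 and 10.6) were also highest in mice 5546 and 5549, as HBB was. The picked cells bore GFP and CD45 served to leave leukocytes out, and the part of blood cells or mouse RNA in these results was not tested.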

How the data were processed

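The values are a signal deposited by the authors, normalized counts per gene, that is reads over the per-cell size factor from DESeq2 (1.42.1). The authors aligned single-cell SMARTseq2 reads to GRCh38 and GENCODE release 38 with STAR 2.7.10a, counted unique reads without strand, and removed CTCs with under 50% uniquely mapped reads or a high mitochondrial share. Alignment to the human genome alone is described, so mouse RNA may be counted. Dividing by the smallest value of each cell gave whole reads for 100% of values above 0 (tolerance 0.001), and these gave depth, shares of reads and the sums for tests. Gene names came from GENCODE release 44 (25684 of 25739 identifiers) and promoters from RefSeq.

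Groups came from the labels. CTC values were averaged within each of 5 mice and compared with the mean of the 6 cultured cells, which come from 1 culture. A gene was measured when the larger group mean was at least 8. Ratios used a pseudocount of 1, and the size rule a fold of 4. Errors are SDs over mice, and p-values measure the spread between these samples, with the culture assumed to vary as the mice do (edgeR 4.0.16 and DESeq2 1.42.0 on summed reads, Benjamini-Hochberg adjustment). Named genes were up to 15 in each direction by ratio, up to 8 per list that met the rule, the 3 of each list with the highest level, 10 per detection rule, and markers of other cells; other genes named were chosen after their values were seen. The 41 lists hold 1067 genes (1043 found), and they, the samples and the rules were chosen with earlier results of these data known. Alternatives covered pseudocount, minimum mean, fold, averaging, scaling, thinning, gene-rich CTCs and leaving out each mouse or cultured cell. Scripts were tested on simulated data in Python 3.11.15 (numpy 2.4.6, pandas 2.3.3, scipy 1.17.1) and R 4.3.3. Of the CTC libraries, 4 were not analysed here. Some genes are not reported here.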

Additional observations from a re-analysis of the deposited data

Results flagged for a closer look

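A sample was picked out when its gap to the nearest other sample of its group, relative to the whole range of the group, passed the 95% critical value of Dixon's test. Of 103 groups examined 16 passed, and chance picks about 1 in 20. None of these was weighed against an explanation.

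Mouse 5541, with 2 CTCs, stood apart in 3 list medians relative to the median gene. Its S phase genes lay at -4.39 (other mice -1.18 to -0.36) and its mitotic genes at -4.84 (-1.22 to -0.35), while glycolysis lay at 0.68 (0.07 to 0.23). Mouse 5546 was low for nuclear genes of the respiratory chain at 0.32 (0.81 to 1.00) and for the mitochondrial ribosome at -0.47 (0.18 to 0.38). Mouse 5549 was high for replication-dependent histones at 6.85 (0.81 to 1.35) and low for lysosome and autophagy genes at -0.27 (0.43 to 0.63).

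Among cultured cells, LM-2 took 4.08% of its reads for mitochondrial genes of the respiratory chain (2.79% to 3.24% in the others), 3.56% for chaperones (1.97% to 2.52%) and 0.28% for checkpoint and complement genes (0.388% to 0.421%). LM-3 took 0.494% for mitotic genes (1.57% to 2.17%).

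For single genes, the log2 ratio of BICC1 was -6.56 in mouse 5542 (-5.37 to -4.90 in the others). Mouse 5546 held the few reads of genes that the other 4 mice lacked, with ratios of -4.88 for CA2 (-5.45 in the others), -6.78 for CYP1B1 (-7.04), -5.88 for GPRC5C (-6.24) and -4.93 for MUC5AC (-5.55).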

How the results depend on the processing

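The 6 higher and 487 lower genes became 17 higher with a pseudocount of 0.1 and 3 higher and 144 lower with 8. A minimum mean of 32 left 307 lower. A fold of 2 gave 24 higher and 2298 lower, and a fold of 8 gave 80 lower. Medians of cells gave 2 higher and 1357 lower, and all CTCs pooled gave 194 and 1795. Scaling gave 12 and 137 in RPM, 13 and 131 without mitochondrial genes, and 49 and 27 after centering, which was added after seeing the data. The edgeR test gave 0 and 0 with TMM, 0 and 0 with RLE factors (241 and 240 genes at an unadjusted p below 0.05) and 20 and 7 with no filter, and DESeq2 gave 18 and 2. With a mouse or cultured cell left out the higher genes were 5 to 13 (13 without mouse 5541, 12 without 5546, 10 without 5549) and the lower genes 397 to 757 (757 without mouse 5545).

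The 2 genes not found in CTCs were 14 at a value of at least 8, 1 after thinning to 469614 reads, 1 in the 23 gene-rich CTCs and 1 in the 29 CTCs without the libraries of mouse 5546 marked with the letter s, and 137 when 4 of the cultured cells sufficed (added later). They were 2 to 17 with 1 sample left out (17 without LM-3, 9 without LM-10, 6 without LM-2, 6 without mouse 5546, 4 without mouse 5545). The 34 genes found in CTCs only were 5 at a value of at least 8, 19 after thinning, 22 in gene-rich CTCs and 7 when restricted to protein coding genes (added later), and 26 to 88 with 1 sample left out (88 without mouse 5541).

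The 5 lists below the median gene in every mouse were 30, and the 13 above it 2, with no minimum mean, a setting that adds undetected genes and moves the median of all genes to -0.18. Leaving out 1 sample gave 5 to 7 and 11 to 17, and pooling gives no value in every mouse. Of 901 pairs of list and setting 837 moved by less than the SD between mice, 51 moved further and 13 turned sign. The last were glycolysis (-0.09) and the secretory pathway (-0.06) with a pseudocount of 8, and with no minimum mean glycolysis (-1.08), nuclear respiratory chain (-0.52), cytosolic ribosomal proteins (-0.08), AP-1 (-0.08), MAPK (-0.45), HLA class I (-0.51), integrins (-0.27), actin (-0.68), epithelial genes (-0.06), BCL2 family (-0.49) and the secretory pathway (-1.11). Chaperones came to -0.01 with medians of cells. Of 65 named genes that met the size rule, 12 met it in every setting (ALDH3A1, BICC1, ANKRD1, GPRC5C, CYP1B1, CA2, AJUBA, MUC5AC, KRT81, HBB, TFAP2C and VIPR1), and none turned sign. No paired analysis was possible because the cultured cells belong to no mouse. The causes of these shifts were not tested. Low-count genes limit the ratios, since 1 library without reads can move a mouse mean based on 2 or 4 CTCs.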

Other observations

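Beyond the lists, the 49 genes that were higher after the median gene was set to 0 included further secreted and structural genes. They held TAGLN3 and NES, an intermediate filament protein of neural progenitors, BMP2, a ligand of the bone morphogenetic protein family, CD70, a ligand of the TNF family, and ITGB3, the beta subunit of the platelet and vitronectin receptor. ITGB3 averaged 26.4, 36.7, 2.76, 3.73 and 1.68 in mice 5541, 5542, 5545, 5546 and 5549 against 0 to 1.99 in the culture, and 14 CTCs held reads of it. ITGB3 is itself on the list of platelet markers and is its only member that reached the minimum mean. That list took 0.000525% to 0.00695% of reads over the mice against 0% to 0.000381% in the culture. The share includes the ITGB3 reads and is not separate information on platelets, whose part in the ITGB3 value was not tested. Pseudogenes of ferritin, actin and ubiquitin were in the same set. Their reads may belong to the parent genes, which were not separated here.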
